A study of Drosophila melanogaster with 2 samples.

Results

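Intronic peaks near a start site were taken from a chromatin immunoprecipitation (ChIP-seq) map of the fly protein CG9948, and 2138 of the 7637 peaks of the optimal IDR list met the definition (28.0%, 95% Wilson interval 27.0 to 29.0). A peak was included if its summit, the base with the highest signal, lay inside a gene but in no annotated exon, more than 500 bp and at most 5 kb from the nearest transcription start site (TSS) of any gene. IDR, the irreproducible discovery rate, scores how alike peaks rank in replicates. The chromatin came from whole Drosophila melanogaster pupae aged 24 h of a transgenic line that carries CG9948 with GFP at its C-terminus, and the tagged protein was precipitated through GFP. There was 1 group, with 2 biological replicates numbered 1 and 3, and no other genotype, stage or treatment was compared. Whole pupae mix all tissues, so no peak can be given to a cell type. The tag sits on a transgene, and the labels do not name the promoter that drives it. The remaining IDR peaks lay within 500 bp of a TSS (2280, called promoter peaks here), in introns farther than 5 kb from any TSS (1427, far intronic), between genes within 5 kb of a TSS (1039, near intergenic), between genes farther away (590, far intergenic) and in exons (163).

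Introns close to a start site often hold enhancers and further promoters of the same gene, and in flies long first introns are a common home of regulatory DNA. A ChIP peak marks DNA recovered with the tagged protein, bound directly or through other proteins or through open chromatin. The definition uses position only and no signal, replicate overlap, sequence, intron order or gene function. Some of these still go with position, since first introns lie closer to a start and genes differ in how much such DNA they hold. The IDR list was made with a measure of replicate agreement. Still, its near intronic count (2138), far intronic count (1427) and promoter share (29.9%) equalled those of the 7637 strongest pooled peaks. Not every IDR peak had a match in both replicate lists.

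The summit windows of strong near intronic peaks are shown because a short stretch rich in A and T at the summit is the feature most of these peaks share. Each sequence is 101 bases long, 5′ to 3′ on the forward strand of the RefSeq release 6 genome (dm6 coordinates), and capitals mark unbroken runs of 6 or more A or T bases. For ush and CG4496 the windows centred 200 bp to either side are given as well, and CG9663 is shown as an exception.
ush summit, chr2L:481038-481138: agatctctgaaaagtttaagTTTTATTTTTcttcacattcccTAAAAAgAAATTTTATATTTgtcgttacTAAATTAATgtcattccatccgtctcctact
ush left, chr2L:480838-480938: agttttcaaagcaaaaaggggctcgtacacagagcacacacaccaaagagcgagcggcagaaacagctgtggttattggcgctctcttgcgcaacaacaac
ush right, chr2L:481238-481338: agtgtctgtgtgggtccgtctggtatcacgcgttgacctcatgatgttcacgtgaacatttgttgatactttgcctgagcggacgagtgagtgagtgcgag
CG4496 summit, chr2L:7188567-7188667: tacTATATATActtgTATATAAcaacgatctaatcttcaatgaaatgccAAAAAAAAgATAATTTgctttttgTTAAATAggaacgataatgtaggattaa
CG4496 left, chr2L:7188367-7188467: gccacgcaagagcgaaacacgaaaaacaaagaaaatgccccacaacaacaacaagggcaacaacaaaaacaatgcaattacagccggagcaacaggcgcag
CG4496 right, chr2L:7188767-7188867: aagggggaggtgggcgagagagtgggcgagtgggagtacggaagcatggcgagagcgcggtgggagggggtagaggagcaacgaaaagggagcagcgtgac
CG11050 summit, chr2L:6612659-6612759: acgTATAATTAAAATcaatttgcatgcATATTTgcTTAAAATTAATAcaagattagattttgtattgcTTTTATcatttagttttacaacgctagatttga
CG32772 summit, chrX:4910343-4910443: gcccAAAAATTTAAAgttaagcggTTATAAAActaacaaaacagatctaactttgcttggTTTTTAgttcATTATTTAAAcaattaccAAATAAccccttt
Trl summit, chr3L:14759461-14759561: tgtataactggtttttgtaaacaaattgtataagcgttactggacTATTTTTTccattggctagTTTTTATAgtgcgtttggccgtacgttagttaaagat
Lk6 summit, chr3R:11761001-11761101: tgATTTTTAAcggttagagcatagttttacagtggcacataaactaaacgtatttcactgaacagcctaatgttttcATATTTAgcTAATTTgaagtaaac
CG9663 summit, chr2L:3302156-3302256: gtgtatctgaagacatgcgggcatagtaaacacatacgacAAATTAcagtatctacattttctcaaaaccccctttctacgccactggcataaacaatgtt

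The ush window holds 4 runs that cover 38 of its bases, with the longest 13 bases, whereas the windows to its left and right hold 0. Its A + T content was 72.3%, against 49.5% to the left and 48.5% to the right. The CG4496 window holds 5 runs and 76.2% A + T, against 52.5% to the left and 34.7% to the right, where 0 such runs were found. The CG9663 window holds a single run, and its A + T content of 60.4% was below the 70.3% of its flanks. That peak of 800 bp carries a further summit, also a near intronic peak in the IDR list, whose window had 76.2% A + T.

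A + T content within 50 bp of the summit averaged 69.3% over the 2138 peaks and 54.6% in the paired flanks, which lie 200 bp from the summit and together have the same length. The mean difference was 14.7 percentage points (95% interval over peaks 14.3 to 15.2). The summit was the richer side in 1926 peaks (90.1%, 95% Wilson interval 88.7 to 91.3). All DNA that meets the definition averaged 60.8% A + T, so the summits lay above and the flanks below that mean, which covers introns with and without a peak. The longest unbroken A or T run had a median of 10 bases at the summit and 7 bases in either flank. Runs of 10 or more bases were present in 60.8% of summit windows, in 23.6% of left flanks and in 23.2% of right flanks.

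The contrast was larger in stronger peaks. With the near intronic peaks put in 5 equal bins by signal, it was 10.9 ± 11.4 percentage points (SD over 428 peaks) in the weakest bin (signal 149.8 to 195), and it was 18.0 ± 9.77 in the strongest bin (signal 644 to 4697, 428 peaks). The share with the richer summit went from 82.0% to 96.0% between those bins, through 89.5%, 90.7% and 92.3%. Against promoter peaks the share of near intronic peaks with a richer summit was higher (90.1% against 85.7%, odds ratio 1.51, 95% interval 1.26 to 1.81, adjusted p = 3.47e-05, Fisher's exact test, two-sided, Benjamini-Hochberg over 3 comparisons). With flanks centred 500 bp away this difference was gone (odds ratio 0.963, adjusted exact p = 0.665), and in the stronger 50% of the IDR peaks it missed the threshold (odds ratio 1.40, adjusted exact p = 0.0970). Against far intronic peaks the share was lower (92.7%, odds ratio 0.714, 95% interval 0.561 to 0.914, adjusted exact p = 0.0102), a call lost under 6 of 11 alternatives, among them without either replicate. No difference from near intergenic peaks was detected (91.3%, odds ratio 0.862, 95% interval 0.668 to 1.12, adjusted exact p = 0.273).

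**Figure D1:**
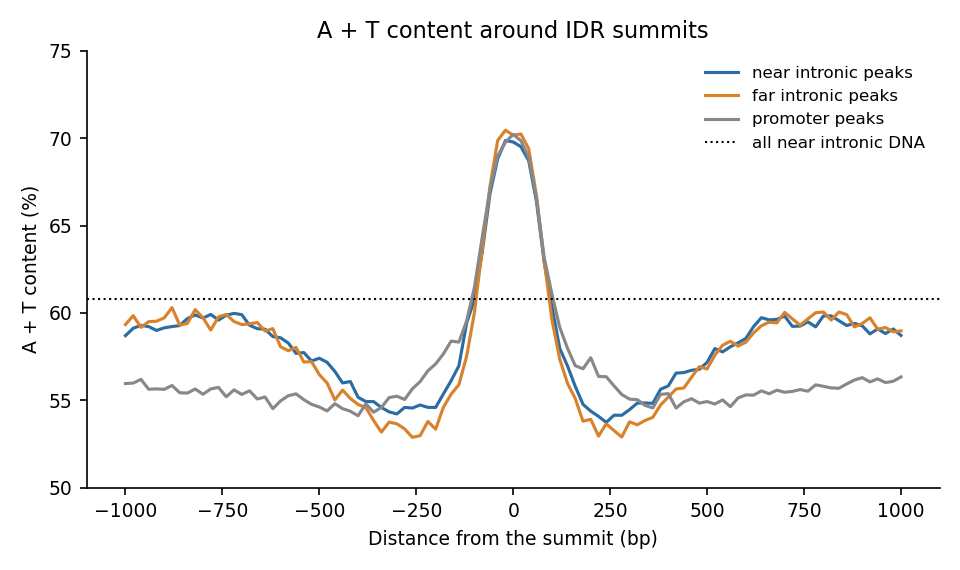
A + T content (percent, y axis from 50) in bins of 20 bp against distance from the summit (bp) for near intronic, far intronic and promoter peaks, with the mean of all near intronic DNA as a dotted line. All 3 curves reach about 70% at the summit. The near intronic curve has its lowest value, 53.7%, at 240 bp to the right of the summit and the far intronic curve 52.9%, at 260 bp to the left, and they return to 59.3% and 59.6% beyond 800 bp, while the promoter curve stays at 55.9% there.

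Of 24 short motifs searched on both strands in the summit window and in the flanks, 16 differed in frequency (66.7% of those tested, exact McNemar test, two-sided, Benjamini-Hochberg over 24). The 5 that were more frequent at the summit are made of A and T or have a single G. TAATTA, the core bound by many homeodomain proteins, was in 11.6% of summit windows and 3.65% of flanks (adjusted exact p = 7.92e-22), against 8.11% of all windows of that length tiled over the near intronic DNA. TATATA was in 11.8% and 3.79% (adjusted exact p = 2.84e-22), against 7.19% of all windows. GATAA, the core of GATA factor sites, was in 24.1% and 15.9% (adjusted exact p = 5.59e-11), against 20.2% of all windows. The A tract AAAAAAA was in 16.3% and 10.4%, and TTATTG, a SOX-type core, in 13.3% and 8.61%, against 11.1% and 10.5% of all windows. GATAA and TAATTA share letters with A and T runs and can overlap them. The whole A + T content differed between summit and flank as well, and its part in the motif differences was not tested.

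The 11 motifs that were less frequent at the summit each hold 3 or more G or C bases. GAGAG, the core of GAGA factor sites, was in 7.95% of summit windows and 20.02% of flanks (adjusted exact p = 7.54e-29), against 11.2% of all windows, so the flanks lay above and the summits below the near intronic DNA as a whole. The repeat CACACAC followed the same order with 1.45%, 8.09% and 4.02% (adjusted exact p = 1.29e-24). GCCAT, the core of Pleiohomeotic sites, was in 10.4% of summit windows, 18.2% of flanks and 19.4% of all windows. CACTG was in 15.2%, 20.4% and 14.7%, and the E-box CAGCTG in 1.82%, 5.19% and 3.61%. The other motifs that were less frequent at the summit were the E-box CACGTG, the Snail-type E-box CACCTG, the ETS core CCGGAA, the Scalloped core GGAATG, the Su(H) site GTGGGAA and the Grainyhead core AACCGG. The Zelda motif CAGGTAG, bound by an activator of the early embryonic genome, was found in 8 summit windows and 16 flanks, a difference that did not pass the test (adjusted exact p = 0.200).

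Set against other classes of peaks, the summit windows were hard to tell apart by these motifs. In 48 comparisons with far intronic and promoter peaks, 1 passed the threshold (2.08%). CGATA, the core of BEAF-32 insulator sites, was in 9.35% of near intronic and 12.8% of promoter windows (odds ratio 0.705, 95% interval 0.584 to 0.854, adjusted p = 0.0155, Fisher's exact test). The number ranged from 0 to 4 under the alternatives, with 2 without replicate 1 and 3 without replicate 3. Against far intronic peaks 0 of the motifs passed, and 2 had an unadjusted p below 0.05. TATATA was less frequent in near intronic windows (11.8% against 14.5%, p = 0.0217, Fisher's exact test). The Grainyhead core AACCGG was more frequent, in 19 near intronic windows (0.889%) against 3 far intronic ones (0.210%, p = 0.0143, Fisher's exact test).

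Signal values of the IDR list, the authors' own on a scale that is not stated, ran from 149.8 to 4697 with a median of 319.7 and quartiles of 211 and 556. The strongest near intronic peak lay at chr2L:480877-481313 in the first intron of ush (u-shaped, a cofactor of GATA factors), 1.40 kb upstream of the TSS of cbt (cabut, a zinc finger transcription factor). Its signal was 4697 in the IDR list, 1671 in replicate 1 and 3028 in replicate 3. It ranked 4 in the list of either replicate and 4 among all IDR peaks. The intron of CG11050 held the next strongest, with 4033 in the IDR list, 1163 in replicate 1 and 2872 in replicate 3. HmgD and HmgZ, neighbouring genes for HMG-box proteins that bend DNA, shared the third, 615 bp upstream of the HmgZ start, with 3735 in the IDR list, 1496 in replicate 1 and 2251 in replicate 3. All of these values were higher in replicate 3, which was the case throughout the strongest 20.

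Among the rest of the strongest 20, Trl, which encodes the GAGA factor, held a peak 1.54 kb downstream of its start with an IDR signal of 3268 (1256 in replicate 1 and 2029.6 in replicate 3). Lk6, a kinase of the translation initiation factor eIF4E, had 3109.8 at 972 bp upstream of an internal start (940.2 and 2162). A peak in pum, a translational repressor, which is also in the first intron of lncRNA:CR45196, had 2919.8 (979 and 1948). The early ecdysone gene Eip74EF, an ETS transcription factor, had 2751 at 1.93 kb from a start (1061 and 1708), and the nuclear receptor gene Eip78C had 2190.5 (677 and 1512). Tet, the fly TET dioxygenase, had 2266 in an intron of 54.9 kb (763 and 1518), and simj, a subunit of the NuRD complex, had 2198 (666 and 1528). The other genes on this list were CG32772, CG12769, CG4496, CG9663 with 2 summits in 1 peak, Reph, CG9837, Pak3, Mhcl and the overlapping Hyls1 and chif, between 3695 and 2136. Each of the 20 had a matching peak in replicate 1 and in replicate 3.

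**Figure D2:**
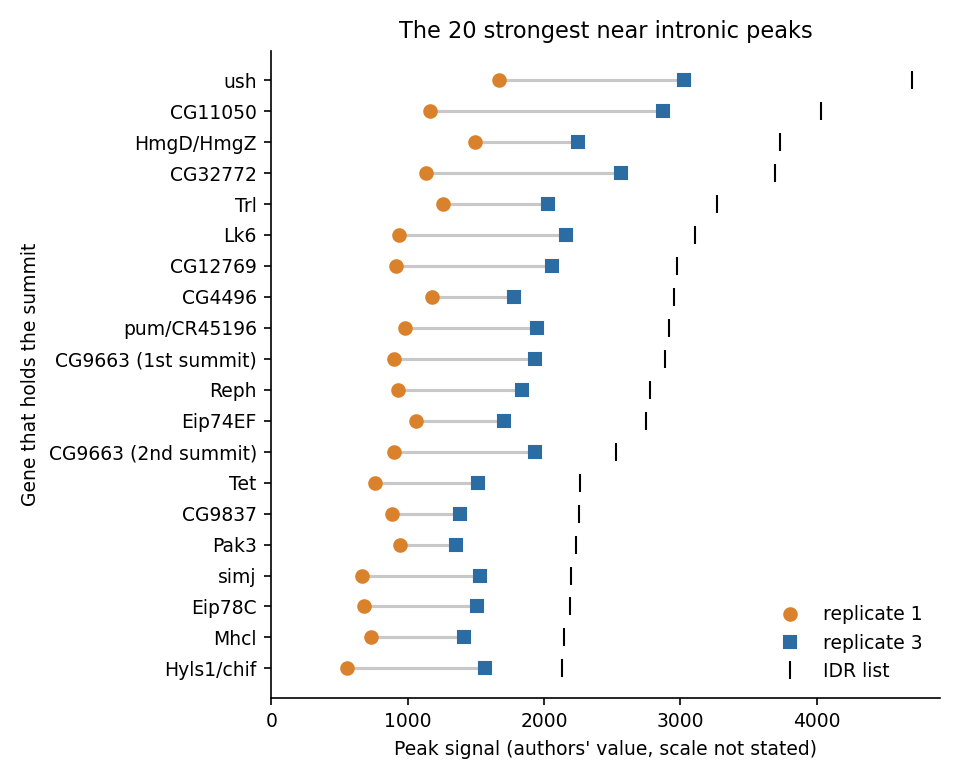
Peak signal (x axis, authors' value) of the 20 near intronic peaks with the highest IDR signal, one row per summit named by the gene that holds it, in replicate 1 (circles), replicate 3 (squares) and the IDR list (ticks). In every row replicate 3 lies to the right of replicate 1, and the IDR value lies to the right of both. The 2 rows of CG9663 share their replicate peaks.

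A match in the lists of replicate 1 and replicate 3, counted where 50% or more of the shorter peak was shared, was found for 1979 near intronic peaks (92.6%, 95% Wilson interval 91.4 to 93.6). The share over all other IDR peaks was 90.5% (odds ratio 1.30, 95% interval 1.08 to 1.56, p = 0.00546, Fisher's exact test, two-sided). The difference missed the threshold with an upper limit of 2.5 kb (odds ratio 1.11, exact p = 0.348) and in the stronger 50% of the IDR peaks (odds ratio 1.43, exact p = 0.0995). Among the other classes the share was lower for promoter (85.0%) and exonic peaks (88.96%) and higher for far intronic (94.7%), near intergenic (93.8%) and far intergenic peaks (96.4%), and these single classes were not tested. In the remaining 159 peaks, 67 had a match only in replicate 1 and 92 only in replicate 3. The strongest of them lay in shn with an IDR signal of 955, matched by a peak of 625 in replicate 3. Over the 1979 matched peaks the signal in replicate 1 correlated with that in replicate 3 (Spearman 0.833, Pearson on log2 values 0.846), given as a description over peaks of the same 2 libraries. The median signal was 108 in replicate 1 and 230.2 in replicate 3. The summits of the replicates were a median of 25 bp apart.

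Signals were higher than those of far intronic peaks. The share with a signal above the median of all IDR peaks (311) was 51.4% (95% Wilson interval 49.2 to 53.5) for near intronic and 45.3% for far intronic peaks (odds ratio 1.27, 95% interval 1.11 to 1.46, adjusted p = 0.00146, Fisher's exact test, two-sided, over 3 comparisons). Median signals were 319.7 and 286. The share was also above the 46.8% of near intergenic peaks (odds ratio 1.20, 95% interval 1.04 to 1.39, adjusted exact p = 0.0233), a call lost under 5 of 9 alternatives, including without replicate 1 (odds ratio 1.18, adjusted exact p = 0.0521). Promoter peaks had 53.9% (odds ratio 0.904, 95% interval 0.804 to 1.02, adjusted exact p = 0.0974). That comparison depended on the library, with an odds ratio of 0.749 without replicate 3 (adjusted exact p = 9.15e-06) and 1.05 without replicate 1 (adjusted exact p = 0.420).

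Summits were denser in introns near a start site than farther away. The 24.5 Mb of DNA that meets the definition held 87.1 summits per Mb, and the 28.3 Mb of intronic DNA beyond 5 kb held 50.5 per Mb (ratio 1.73, 95% interval 1.61 to 1.85, p = 1.49e-58, exact conditional binomial test, two-sided). Neighbouring peaks are no independent draws, which makes the p-values over peaks too small, and the intervals cover counting error only. Promoter DNA held 126 summits per Mb, near intergenic DNA 63.5, far intergenic DNA 29.6 and exons away from promoters 6.16. Density fell from 112 per Mb at 500 to 1000 bp (95% interval 103 to 123) to 92.9 at 1 to 2 kb, 82.4 at 2 to 3 kb, 71.5 at 3 to 4 kb and 70.0 at 4 to 5 kb. It was 69.6 per Mb at 5 to 10 kb, inside the interval of the 4 to 5 kb bin (61.5 to 79.4), while the median signal was 328 at 4 to 5 kb and 289.6 at 5 to 10 kb. It then fell to 57.0 at 10 to 20 kb and 19.6 beyond 20 kb. Against far DNA of up to 20 kb alone, the ratio was 1.36 (exact p = 2.81e-18), and in introns longer than 10 kb it was 1.73 (exact p = 1.13e-33). The latter pooled DNA over introns without matching near and far DNA of the same intron, and its far DNA included that beyond 20 kb. These 2 settings were chosen after the data were seen. In the full lists of 30000 peaks the near and far densities were 284 and 236 per Mb in replicate 1 and 316 and 192 per Mb in replicate 3, so the gap was smaller in replicate 1. Among the 7637 strongest peaks of each list they were close, with 88.4 and 52.5 per Mb in replicate 1 and 86.0 and 49.3 in replicate 3.

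**Figure D3:**
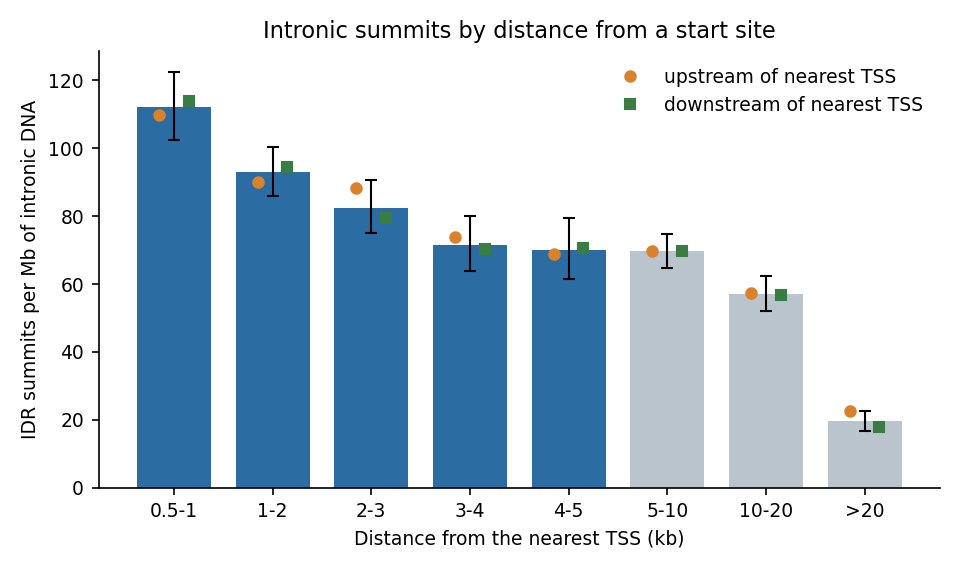
Intronic IDR summits per Mb of intronic DNA (bars, with 95% Poisson intervals) by distance from the nearest TSS (kb), in dark blue for the near intronic range and in grey beyond it; circles and squares give DNA upstream and downstream of that TSS. Density goes down from 112 to 70.0 per Mb within the near range and to 19.6 beyond 20 kb, with 22.6 upstream and 18.0 downstream per Mb in that last bin.

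Taken over all near intronic DNA, the side of the start site made no detectable difference. DNA upstream of the nearest TSS held 743 summits (87.8 per Mb) and DNA downstream of it 1395 (86.8 per Mb), a ratio of 1.01 (95% interval 0.924 to 1.11, p = 0.802, exact conditional binomial test). In the strongest peaks of replicate 1 alone the ratio was 1.11 (exact p = 0.0188), and with a lower limit of 250 bp it was 1.23 (exact p = 5.42e-07). The nearest TSS belonged to the gene that holds the summit in 1614 peaks (75.5%) and to another gene in 524. Density was 100.2 per Mb for an own start and 62.1 for the start of another gene (ratio 1.62, 95% interval 1.46 to 1.79, exact p = 5.41e-23). Among own starts, DNA upstream of an internal alternative start held 121 summits per Mb and DNA downstream of a start 94.5 per Mb (ratio 1.28, 95% interval 1.14 to 1.43, exact p = 2.12e-05). Both of these comparisons were added after the values had been seen. For the start of another gene, upstream DNA held 64.3 and downstream DNA 59.0 summits per Mb, which was not tested. Of the upstream DNA, 3.52 Mb lay near an own start and 4.95 Mb near the start of another gene, against 12.6 and 3.49 Mb downstream. The ratio over all DNA thus mixes own and other starts in unlike parts on the 2 sides.

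First introns held most of the peaks. DNA in a first intron of any transcript held 1575 summits (112 per Mb) and DNA in later introns only 563 (53.8 per Mb), a ratio of 2.08 (95% interval 1.89 to 2.29, p = 6.01e-55, exact conditional binomial test). First introns also lie closer to a start, so the ratio was taken within distance bins. It was 2.45 at 500 to 1000 bp (95% interval 1.91 to 3.17), 1.99 at 1 to 2 kb, 1.74 at 2 to 3 kb, 1.98 at 3 to 4 kb and 2.04 at 4 to 5 kb (1.56 to 2.68). In introns longer than 2 kb it was 1.59 (exact p = 1.10e-19), a setting chosen after the data were seen. Introns of up to 1 kb held 32.2 summits per Mb and longer ones 96.6 per Mb (ratio 0.333, 95% interval 0.274 to 0.402, exact p = 3.80e-42). Beyond 2 kb the density no longer followed length, with 102 per Mb at 2 to 5 kb, 100.9 at 5 to 10 kb, 102 at 10 to 20 kb and 86.1 beyond 20 kb. The median peak lay in an intron of 7969 bp, 1876 bp from the TSS, and was 320 bp wide.

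Every large chromosome arm carried the peaks, with the X chromosome in front. The X held 530 near intronic peaks, or 109 per Mb of DNA that meets the definition, and the arms 2L, 2R, 3L and 3R held 79.0, 85.4, 88.2 and 78.8 per Mb (X against these arms 1.32, 95% interval 1.20 to 1.46, p = 5.07e-08, exact conditional binomial test, chosen after the values had been seen). Far intronic peaks were denser on the X too, with 59.6 against 48.9 per Mb (ratio 1.22, 95% interval 1.07 to 1.38, exact p = 0.00219). The median signal on the X was 296, the lowest of the 5 large arms, whose medians reached 335. The small chromosome 4, which is largely packed as heterochromatin, held 3 near intronic peaks (9.71 per Mb). That count goes with the library, since the full list of replicate 1 held 2 peaks there that meet the definition and the full list of replicate 3 held 45.

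The peaks lay in 1137 genes, 1084 of them protein-coding, which is 11.9% of the 9101 protein-coding genes that hold any DNA meeting the definition. A single peak was found in 638 genes, 3 or more in 250 and 5 or more in 81. The share of genes with a peak went with the length of such DNA in the gene, from 0.797% below 1 kb to 19.5% at 1 to 5 kb, 36.7% at 5 to 10 kb, 48.5% at 10 to 20 kb and 68.2% beyond 20 kb. Most peaks were in the lncRNA gene lncRNA:CR44357 with 17 and in CG1677 with 16, which overlap on the X and share peaks. Ptp61F, a protein tyrosine phosphatase, held 15 with a median signal of 257, and Tlk, the Tousled-like kinase, held 14 with a median of 353. The Dpp effector shn held 13, from 168 to 1724, and kirre, an adhesion protein of muscle founder cells, held 12. Per Mb, Tlk (404) and shn (376) exceeded kirre (112), whose gene spans 394 kb.

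The nearest start site also carried a promoter peak for 537 of the 2138 peaks (25.1%), where a start counts once for each peak nearest to it. Of all 23133 distinct TSSs, each counted once and with or without near intronic DNA beside it, 15.1% did. The units of these shares differ, and no link between near intronic and promoter peaks was tested. Another IDR summit lay within 1 kb of 691 near intronic summits (32.3%) and of 359 far intronic ones (25.2%). The definition fixes part of this gap. Promoter summits can lie within 1 kb of a near intronic summit but never of a far intronic one. Clustering beyond that was not tested. The tagged gene CG9948 itself held no near intronic peak and no DNA that meets the definition. Its only IDR peak was at its promoter, 31 bp from the start, with a signal of 1221 (365 in replicate 1 and 831 in replicate 3).

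Gene lists were read by the count of genes with a near intronic peak and by peaks per Mb of near intronic DNA in their genes, beside 11.9% and 86.3 per Mb over all protein-coding genes. No test was run on the lists, which share members such as pnt, aop and jing, and their genes often have long introns. Peaks and DNA that lie in overlapping genes were counted for each of these genes. A single number in brackets after a gene is the IDR signal of its strongest near intronic peak. Such a peak lies inside the gene, but its nearest start can belong to another gene, as for Sema1a, KCNQ and brat. In the Notch and EGFR list 23 of 33 genes with such DNA held a peak (69.7%, 256 per Mb). The strongest were in neur, a ubiquitin ligase that activates Notch ligands (1912 in the IDR list, 600.3 in replicate 1 and 1308 in replicate 3), in edl, an antagonist of ETS proteins (1842, 566 and 1269), and in both ETS factors of the pathway. The repressor aop had 7 peaks, the strongest at 1174, and the activator pnt had 6, the strongest at 1028, which was much lower in replicate 1 (114) than in replicate 3 (929). In the Wingless, Hedgehog and Dpp list 20 of 34 genes held a peak (58.8%, 212 per Mb). They include shn (1724), the Wingless inhibitor nkd (1657), the receptor fz2 with 6 peaks (1332) and the glypican dlp (1165).

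Hippo and planar polarity genes had peaks in 10 of 21 (47.6%, 184 per Mb), led by the polarity determinant crb (1366), the upstream Hippo regulator ex (1256), the receptor fz (852) and the kinase wts (739). Insulin, TOR and stress kinase genes had 14 of 38 (36.8%, 181 per Mb), led by Lk6, Pvr (a PDGF and VEGF receptor, 897), Stat92E (883) and Mekk1 (862). The ecdysone list had 16 of 26 (61.5%, 125 per Mb), where Eip74EF and Eip78C were followed by the nuclear receptor Hr4 (2017) and by ImpL2, a secreted inhibitor of insulin signalling (1657). For every gene named from these 3 lists the signal was higher in replicate 3 than in replicate 1.

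Genes of chromatin had peaks at high density, and their shares of genes with a peak were above the 11.9% over all protein-coding genes. In the Polycomb, Trithorax and remodelling list 9 of 49 genes held a peak (18.4%) at 185 per Mb, with Trl, trx, a histone H3 methyltransferase (1583), kis, a CHD-type remodeller (951), and jing (908). Of the HMG and other non-histone DNA-binding genes 4 of 13 had one (30.8%), at 308 per Mb of only 22.8 kb. That density rests on a count of 7 peaks, 2 in HmgD and 3 in HmgZ. These genes share their strongest peak, which was counted for both. LamC (314) and Dsp1 (233) were the others. Actin and myosin genes had 18 of 49 (36.7%, 115 per Mb), among them the myosins jar (1455), Myo61F (1180) and ck (848) and the actin bundler sn (1053). RNA-binding genes had 19 of 53 (35.8%, 94.7 per Mb), with brat, a translational repressor (9 peaks, strongest 1692), Syp (1622) and shep (7 peaks, 1296) beside pum. Clock genes had 4 of 17 (23.5%, 113 per Mb), in vri (6 peaks, 1665), sgg (905), dco (678) and Pdp1 (462). Cuticle and apical matrix genes had 8 of 30 (26.7%, 99.8 per Mb), with dy (1321), dpy (1057), pio (629) and Cpr62Ba (351).

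Neural transcription factors had 13 of 31 (41.9%) at 93.7 per Mb, close to the RNA-binding list, with zfh1 (1162) between the shared aop and pnt. Axon guidance and adhesion genes had 25 of 70 (35.7%) at 56.3 per Mb, led by Sema1a (1322), Ptp10D (1299), kirre (1138) and tutl (1056). Imaginal and segmentation transcription factors had 7 of 54 (13.0%, 37.4 per Mb), led by bowl with 5 peaks (1345), hth (778), Abd-B (777) and Antp (388). Ion channels and neurotransmitter receptors had 8 of 70 (11.4%), near the share over all genes, at 18.7 per Mb, the lowest density of a list with any peak, in KCNQ (1268), Irk1 (1118), Ca-beta (1012) and NaCP60E (420) among others. No peak lay in the 11 insulator or 24 cytosolic ribosomal protein genes with such DNA, which hold 6.89 and 5.26 kb of it in all.

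**Figure D4:**
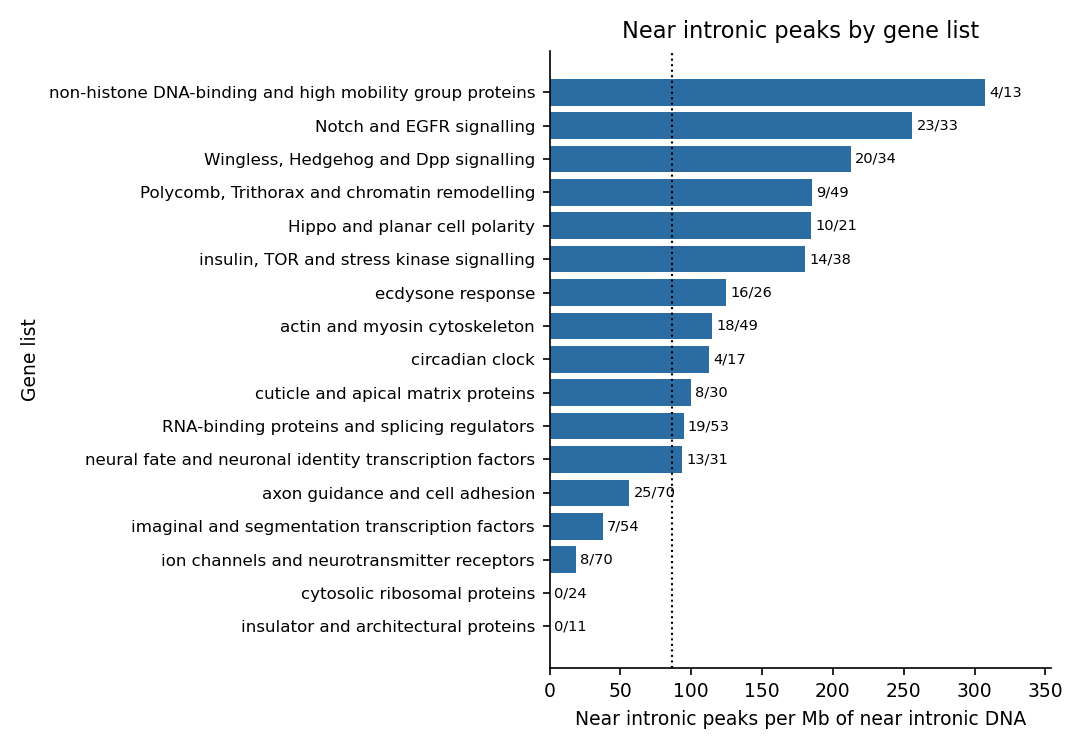
Near intronic peaks per Mb of near intronic DNA (x axis) in the genes of each list, with the number of genes that hold a peak over the number that hold such DNA at the end of each bar and a dotted line at 86.3 per Mb for all protein-coding genes. The HMG and other non-histone list has the longest bar (308), the signalling lists lie to the right of the line too, and axon guidance, imaginal transcription factor and ion channel lists to the left. Peaks in overlapping genes count for each gene, and the longest bar rests on a count of 7.

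The peaks nearest to the limits of the definition are given as single values. Just inside 500 bp lay peaks in CG9896 and the overlapping twi (501 bp, signal 515), CG1637 (504 bp, 182) and lncRNA:CR34044 (504 bp, 463), and just outside it lay peaks in CG32512 and bves (499 bp, 495), Nadk1a (498 bp, 716) and yin (497 bp, 274). Just inside 5 kb were peaks in cv-c (4997 bp, 1113), boi (4995 bp, 497) and EcR (4991 bp, 218), and just outside it were peaks in lncRNA:let7C (5005 bp, 266), tou (5015 bp, 327) and Pdk (5018 bp, 339).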

How the data were processed

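Anti-GFP ChIP-seq of 2 whole-pupa samples was deposited as 4 peak lists on dm6: 30000 peaks each for replicate 1, replicate 3 and both pooled, and 7637 that passed IDR. Peak signal is the authors' own value and served to describe, rank and filter peaks. The −log10 q-value that the authors deposited entered no test. Summits come from the authors' deposited offsets. The sources used here do not name the aligner, the peak caller or its thresholds. The control was not analysed here, and the lists do not show read depth.

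Genes came from Ensembl release 115 (BDGP 6.54), without transposable elements, with 23133 distinct TSSs, and sequence from RefSeq release 6. Densities are summits per Mb of DNA of the same kind, tested with an exact conditional binomial test. Shares were tested with Fisher's exact test and motifs with an exact McNemar test, with Benjamini-Hochberg adjustment and a threshold of 0.05. The binomial test, the motif search and the peak overlap were checked on made-up data with known answers. Fisher's and McNemar's tests were not checked in this way. Of 762 list entries 761 matched a gene, and a further list is not reported here. The peaks' definition, the gene lists and the tests were chosen with earlier results of these data known, and misplaced or outdated list entries were corrected after values had been seen. Named are CG9948, the 20 strongest peaks found in both replicates, the 6 genes with most peaks, up to 4 genes per list by their strongest peak, and the 3 peaks nearest to each limit. Alternatives varied the limits, TSS set, peak set, replicate, overlap and windows. The software was SciPy 1.17.1 and NumPy 2.4.6 under Python 3.11.15, with matplotlib 3.10.9 and pandas 2.3.3.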

Additional observations from a re-analysis of the deposited data

How the results depend on the processing

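Of 143 values recomputed under 18 alternative settings, 109 kept their direction and their side of the threshold, or stayed within 1.5 times for counts. The density ratio of near to far introns ranged from 1.36 to 2.14 and that of first to later introns from 1.59 to 2.32, all past the threshold; with a replicate left out, only as many of the strongest peaks as the IDR list holds were used. The number of peaks was 1391 with an upper limit of 2.5 kb and 1098 in the stronger 50% of peaks, which hold less DNA or fewer peaks by construction. The upstream to downstream ratio was 1.23 with a lower limit of 250 bp, 1.00 with 2.5 kb, 0.985 in the stronger 50% of peaks, and 1.02 to 1.11 with 1 replicate left out. The odds ratio for strong peaks against promoter peaks was 0.851 with 10 kb and 0.749 to 1.05 with 1 replicate left out. Against near intergenic peaks it was 1.10 with 2.5 kb, 1.09 with 10 kb, 1.10 with protein-coding TSSs only, 1.04 in the stronger 50% of peaks and 1.18 to 1.27 with 1 replicate left out. For the A + T contrast against far intronic peaks it was 0.800 with a lower limit of 1000 bp, 0.673 in the stronger 50% of peaks, 0.868 with windows of 25 bp, 0.783 with flanks at 500 bp and 0.804 to 0.806 with 1 replicate left out. Against promoter peaks it was 1.40 in the stronger 50% of peaks and 0.963 with flanks at 500 bp, and against near intergenic peaks 1.01 with protein-coding TSSs only. For overlap with both replicates it was 1.11 with 2.5 kb and 1.43 in the stronger 50% of peaks. The number of motifs that differed from other classes was 2 with 250 bp, 1000 bp or 2.5 kb, 0 in the stronger 50% of peaks, with merged peaks and with windows of 25 bp, 4 with windows of 100 bp, and 2 to 3 with 1 replicate left out. The cause of these shifts was not tested. Overlap with both replicates has no value with a replicate left out. No paired analysis was possible because both samples form a single group. The settings on long introns, far DNA of up to 20 kb and autosomes were chosen after seeing the data. Depth is not known, and the replicate and pooled lists hold 30000 peaks each. A peak that is missing from a list can thus not be called absent from the sample, nor can it be said why it is missing.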
